A study of Mus musculus with 9 samples.

Results

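Type I interferon-stimulated genes, named for their rise after cells bind interferon alpha or beta, were followed in 9 mouse livers. The name does not mean that no other signal induces them. The set was taken by name from a list of 44 gene symbols that span sensors, transcription factors, antiviral effectors and ubiquitin-like modifiers. Of these, 43 had a row among the 20325 gene rows of each liver's table, and the exception was Ifi27. All 43 passed the filter on low counts, which kept 12037 genes in all.

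The livers came from male C57BL/6J mice fed chow, 3 in each group, and polyadenylated RNA of whole liver was sequenced. GF mice were germ-free throughout. GF+SCFA mice were germ-free too, but their drinking water held acetate at 67.5 mM, propionate at 25.9 mM and butyrate at 40 mM, short-chain fatty acids that gut bacteria make from fibre. ConvD mice were germ-free until 15 weeks of age, when a gavage of cecal contents from conventionally raised donors colonised them for 4 weeks. The labels disagree on age, with 14 weeks in the design text and dissection at 19 weeks in the growth protocol. Mice were housed by colonisation status, so cage and group cannot be told apart. The 3 livers of a group are called biological replicates in the design text but no animal is named for each, so a p-value here measures spread among samples that may in part be technical.

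Type I interferons bind a receptor made of IFNAR1 and IFNAR2, which activates the kinases JAK1 and TYK2. These phosphorylate transcription factors, which with IRF9 form a complex that enters the nucleus and binds a short element in promoters of the genes described here. Many of the products sense or degrade viral RNA, block viral entry or budding, or feed back on the pathway, and a low level of this expression is present in uninfected tissue. In liver, hepatocytes, Kupffer cells (the resident macrophages) and endothelial cells can all respond to interferon.

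The element bound by this complex has a core of GAAA, any 2 bases and GAAA again. It was searched on both strands, overlapping matches included, in the 250 bases before the transcription start of RefSeq genes (build GRCm38.p6). Of the members, 33 had at least 1 such window and 9 of the 33 (27.3%) held the core, against 494 of 14315 genes of the tables with a window (3.45%). Called members, those with an adjusted p under 0.05 between ConvD and GF livers, held it in 6 of 17 cases (35.3%) and the other members in 3 of 16 (18.8%). The windows of the 6 called members are printed around 1 match each, 5′ to 3′ on the strand of the gene, with that match in capitals. It is the match nearest the start, and other matches are not marked where they fall within the printed bases. The searched window held 3 matches in Isg15, 2 each in Ifit3, Bst2, Ifit1 and Oas1g, and 1 in Rsad2. A match that reads TTTC first is the core on the other strand.
Ifit3, chr19:34583382-34583441, plus strand: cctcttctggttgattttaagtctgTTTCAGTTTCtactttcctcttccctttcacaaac
Isg15, chr4:156200850-156200909, minus strand: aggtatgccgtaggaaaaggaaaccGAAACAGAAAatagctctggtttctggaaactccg
Rsad2, chr12:26456538-26456597, minus strand: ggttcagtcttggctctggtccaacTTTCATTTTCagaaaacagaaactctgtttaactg
Bst2, chr8:71537562-71537621, minus strand: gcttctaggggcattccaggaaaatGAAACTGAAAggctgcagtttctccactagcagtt
Ifit1, chr19:34640779-34640838, plus strand: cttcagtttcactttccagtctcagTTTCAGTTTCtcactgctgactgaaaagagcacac
Oas1g, chr5:120887614-120887650, minus strand: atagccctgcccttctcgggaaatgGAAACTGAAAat

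The printed match lay 122 to 113 bases before the start in Ifit3, 120 to 111 in Rsad2 and 124 to 115 in Bst2. It was nearer the start in Ifit1 (85 to 76 bases) and Isg15 (66 to 57 bases). In Oas1g it lay 12 to 3 bases before the start, and all 37 bases printed for Oas1g were the same in Oas1a, a neighbour of the same family. The 3 members with the core that were not called between ConvD and GF livers were Oas1a, Oas3 and Stat2. These matches describe letters in a window of another build than the counts, and say nothing about binding in these livers.

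The interferon-stimulated genes called between colonised and germ-free livers were all higher in the colonised ones. Between ConvD and GF livers, 21 of 43 members rose (48.8%) and 0 fell, by edgeR's quasi-likelihood test with Benjamini-Hochberg adjustment over all genes. Of all 12037 genes tested, 5.93% were called higher and 6.9% lower in the same comparison. The largest rises among members were in Oas1g, Cmpk2, Rtp4, Xaf1, Rsad2 and Zbp1, at 1.86-fold to 2.52-fold. The median log2 fold change over the 43 members was 0.60, against 0.0026 over all genes, and 41 members had a value above 0, as had 50.5% of all genes. The livers of the groups did not overlap in 25 members, all higher in ConvD, where 15.7% of all genes were higher and 15.9% lower without overlap. At an unadjusted p under 0.05, 30 members were higher and 0 lower, against 28.6% of all genes in either direction. Members without a call ranged from Dtx3l (log2 fold change -0.07 ± 0.11 SE, adjusted p = 0.71) to Isg20 (log2 fold change 0.73 ± 0.26 SE, adjusted p = 0.0757).

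Against the GF+SCFA livers, which share the germ-free state, 27 of 43 members were higher in ConvD livers (62.8%) and 0 lower, where 9.44% of all genes were called higher and 8.97% lower. The median log2 fold change was 0.51 over members and 0.0063 over all genes, with 42 members and 51% of all genes above 0. Groups did not overlap in 33 members, all higher in ConvD (19% of all genes higher and 18.9% lower), and 35 were higher at an unadjusted p under 0.05 (33.1% of all genes in either direction). Levels are given as CPM, counts per 1000000 of the library total after scaling by the trimmed mean of M values (TMM). Each group enters 2 of the 3 comparisons, so these are not independent. In 23 members (53.5%) every ConvD liver stood above all 6 livers of the GF and GF+SCFA groups, which held for 10.3% of all genes. Of the genes called between ConvD and GF, 46.2% were higher, against 73.1% with library totals as the scale and 66.1% with upper-quartile factors, and with both scales 26 members were called, all higher. Without ConvD replicate 2 the count against GF was 15 members, all higher, and without any 1 of the other livers it was 16 to 20.

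**Figure D1:**
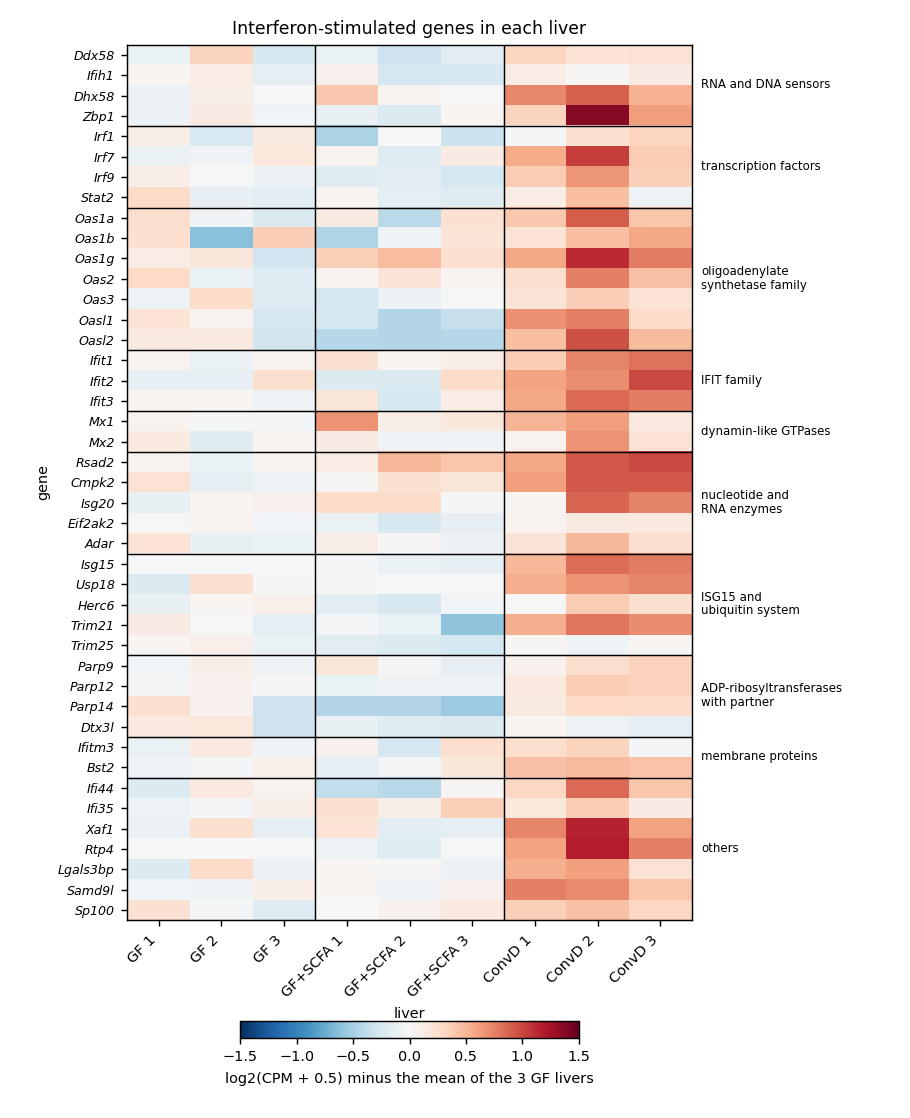
Each row is an interferon-stimulated gene, grouped by role, and each column a liver. Colour gives log2(CPM + 0.5) minus the mean of the 3 GF livers. The 3 ConvD columns are mostly red, with the darkest cells in ConvD 2 (Zbp1, Rtp4, Oas1g and Xaf1), while the GF and GF+SCFA columns stay near 0.

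The sensors detect foreign nucleic acid: Ddx58 encodes RIG-I, Ifih1 encodes MDA5, Dhx58 encodes their regulator LGP2, and Zbp1 encodes a sensor of Z-form nucleic acid. Dhx58 and Zbp1 rose against GF (2 of 4), and these and Ddx58 were higher than in GF+SCFA livers (3 of 4). Dhx58 stood at 6.95, 7.87 and 7.42 CPM in the GF livers, 9.98, 7.65 and 7.42 CPM in the GF+SCFA livers and 12.5, 14.1 and 10.9 CPM in the ConvD livers. Every ConvD liver lay above every germ-free liver, and the mean was higher than in GF livers by 1.69-fold (log2 fold change 0.75, SE 0.13, adjusted p = 0.00319). Zbp1 was at 5.16, 6.04 and 5.35 CPM in the GF livers, 5.05, 4.67 and 5.62 CPM in the GF+SCFA livers and 7.08, 14.9 and 8.77 CPM in the ConvD livers. ConvD replicate 2 was far above the other ConvD livers, though none overlapped a germ-free one, and the difference from GF was 1.86-fold (log2 fold change 0.90, SE 0.24, adjusted p = 0.0342). Zbp1 lost this call without any 1 of GF replicates 1, 2 and 3, GF+SCFA replicates 1 and 2 or ConvD replicate 2 (adjusted p = 0.0528 to 0.109) and also with only both groups fitted (0.0855), and the call against GF+SCFA without either of GF+SCFA replicates 1 and 2 (adjusted p = 0.059 to 0.0708) and also with only both groups fitted (0.0542). Ddx58 was measured at 24.2, 32.7 and 21.9 CPM in the GF livers, 24.2, 20.8 and 23.01 CPM in the GF+SCFA livers and 32.4, 29.98 and 30.2 CPM in the ConvD livers. GF replicate 2 lay as high as the ConvD livers. The difference from GF did not pass (log2 fold change 0.23 ± 0.12 SE, adjusted p = 0.24), while that from GF+SCFA was 1.36-fold (log2 fold change 0.45, SE 0.13, adjusted p = 0.0275). That call was lost without any 1 of GF+SCFA replicates 2 and 3 or ConvD replicates 1, 2 and 3 (adjusted p = 0.0573 to 0.11). Ifih1, the sensor with the highest TPM, had 44.4, 47.2 and 39.8 CPM in the GF livers, 45.7, 36.3 and 37.02 CPM in the GF+SCFA livers and 47.4, 44.4 and 47.6 CPM in the ConvD livers. Its 3 groups overlapped, and no comparison of it passed (adjusted p = 0.107 to 0.596).

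Among the transcription factors, Irf9 (the DNA-binding part of the complex that interferon activates) and Irf7 (which drives interferon genes themselves) rose against GF, and Irf1 was higher in ConvD than in GF+SCFA livers. Irf9 was present at 26.8, 24.99 and 23.5 CPM in the GF livers, 22, 22.2 and 20.8 CPM in the GF+SCFA livers and 32.9, 40.1 and 32.3 CPM in the ConvD livers. The 3 groups did not overlap, with GF+SCFA lowest and ConvD highest. ConvD exceeded GF by 1.399-fold (log2 fold change 0.48, SE 0.09, adjusted p = 0.00504) and GF+SCFA by 1.62-fold (log2 fold change 0.70, SE 0.09, adjusted p = 0.000314), while GF+SCFA against GF gave log2 fold change -0.21 ± 0.10 SE, adjusted p = 0.388. Irf7 had 24.99, 25.9 and 30.1 CPM in the GF livers, 27.9, 23.5 and 29.3 CPM in the GF+SCFA livers and 39.7, 55.8 and 35.3 CPM in the ConvD livers. All ConvD livers were above all germ-free ones, and the difference from GF was 1.61-fold (log2 fold change 0.69, SE 0.16, adjusted p = 0.0237). It was lost without either of GF replicates 1 and 2 (adjusted p = 0.0831 to 0.0844), and that from GF+SCFA without GF+SCFA replicate 2 (adjusted p = 0.0612). Irf1, also induced by interferon gamma, was at 19.8, 15.7 and 20.3 CPM in the GF livers, 13.2, 18.4 and 14.7 CPM in the GF+SCFA livers and 18.3, 21.97 and 23.2 CPM in the ConvD livers. ConvD replicate 1 lay within the germ-free range, and only the comparison with GF+SCFA passed (1.37-fold, log2 fold change 0.45, SE 0.14, adjusted p = 0.039), a call lost without any 1 of GF replicate 1, GF+SCFA replicates 1 and 3 or ConvD replicates 2 and 3 (adjusted p = 0.0518 to 0.136). Stat2 did not pass in any comparison, with a mean of 34.4 ± 6.21 CPM (SD, n = 3) in GF livers and 38.6 ± 7.25 CPM (SD, n = 3) in ConvD livers and an adjusted p of 0.504 between them.

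The oligoadenylate synthetases make a small nucleotide messenger that activates RNase L, which cuts RNA, and the Oasl proteins are related antiviral factors. Of 7 members, 3 rose against GF (Oas1g, Oasl1 and Oasl2) and 2 were higher than in GF+SCFA livers (Oasl1 and Oasl2). Oasl2 stood at 4.51, 4.55 and 3.29 CPM in the GF livers, 2.89, 2.88 and 2.89 CPM in the GF+SCFA livers and 5.78, 8.398 and 5.85 CPM in the ConvD livers. The GF+SCFA livers were the lowest and nearly equal to each other, and the ConvD livers the highest, with no overlap between any 2 groups. ConvD was above GF by 1.63-fold (log2 fold change 0.70, SE 0.18, adjusted p = 0.0196) and above GF+SCFA by 2.31-fold (log2 fold change 1.21, SE 0.19, adjusted p = 0.00075). Oasl1 was at 9.29, 8.31 and 6.62 CPM in the GF livers, 6.63, 5.76 and 6.22 CPM in the GF+SCFA livers and 13.2, 13.9 and 9.83 CPM in the ConvD livers. Its ConvD livers were above all germ-free livers, by 1.53-fold (log2 fold change 0.61, SE 0.15, adjusted p = 0.0165) against GF and 1.99-fold (log2 fold change 0.99, SE 0.15, adjusted p = 0.000777) against GF+SCFA. Oas1g, whose promoter is printed above, had few counts, at 0.598, 0.643 and 0.329 CPM in the GF livers, 0.794, 0.894 and 0.709 CPM in the GF+SCFA livers and 1.02, 1.71 and 1.22 CPM in the ConvD livers. Its groups did not overlap, and the difference from GF was 2.52-fold (log2 fold change 1.33, SE 0.32, adjusted p = 0.0159), while that from GF+SCFA did not pass (log2 fold change 0.71 ± 0.30 SE, adjusted p = 0.112). Against GF, Oasl2 lost its call without either of GF replicate 3 or ConvD replicate 2 (adjusted p = 0.0597 to 0.0947), Oasl1 without either of ConvD replicates 1 and 2 (adjusted p = 0.0596 to 0.0709) and Oas1g without either of GF replicate 3 or ConvD replicate 2 (adjusted p = 0.0535 to 0.0765).

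The other 4 synthetases had positive values that did not pass against GF. Oas1a was 1.596-fold (adjusted p = 0.0631), Oas2 1.55-fold (0.0964), Oas1b 1.48-fold (0.392) and Oas3 1.22-fold (0.336). Oas1b of C57BL/6 mice carries an early stop codon. The Oas1 genes are a tandem family of related copies, and their deposited counts include fractions of reads divided between genes, so the value of a single copy is uncertain.

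All 3 IFIT genes, whose products bind viral RNA and block its translation, rose in both comparisons with ConvD livers. Ifit3 was at 13.5, 13.4 and 12.3 CPM in the GF livers, 14.9, 10.8 and 14.2 CPM in the GF+SCFA livers and 19.9, 23.9 and 22.6 CPM in the ConvD livers. The lowest ConvD liver was above the highest germ-free liver, and the GF and GF+SCFA livers overlapped. ConvD exceeded GF by 1.69-fold (log2 fold change 0.76, SE 0.12, adjusted p = 0.00134) and GF+SCFA by 1.67-fold (log2 fold change 0.74, SE 0.12, adjusted p = 0.000943). Ifit1 was at 8.801, 7.87 and 8.78 CPM in the GF livers, 10.04, 8.64 and 9.11 CPM in the GF+SCFA livers and 11.1, 14.4 and 15.2 CPM in the ConvD livers, again with no ConvD liver in the germ-free range, and 1.602-fold (log2 fold change 0.68, SE 0.13, adjusted p = 0.0039) above GF. Ifit2, the lowest of the 3 by TPM, had 3.803, 3.81 and 5.02 CPM in the GF livers, 3.57, 3.53 and 5.18 CPM in the GF+SCFA livers and 6.6, 7.08 and 8.77 CPM in the ConvD livers. Its ConvD livers too lay above all others, with a difference from GF of 1.77-fold (log2 fold change 0.82, SE 0.18, adjusted p = 0.00977). Ifit1 and Ifit2 exceeded GF+SCFA by 1.47-fold and 1.83-fold (adjusted p = 0.00805 and 0.00503). Their deposited counts also include fractions, and the family holds close copies.

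Mx1 and Mx2, of a family of dynamin-like GTPases known for trapping viral nucleocapsids, were not called in any comparison. Whether the Mx2 transcript of these mice yields a working protein was not examined. Mx1 of C57BL/6 mice has a deletion that leaves no working protein, and it was the member with the lowest level. Mx2 was at 3.86, 2.97 and 3.52 CPM in the GF livers, 3.799, 3.28 and 3.27 CPM in the GF+SCFA livers and 3.59, 5.76 and 4.04 CPM in the ConvD livers, with ConvD replicate 1 inside the GF range (log2 fold change 0.37 ± 0.19 SE, adjusted p = 0.209). Mx1 was at 1.599-fold in ConvD against GF (adjusted p = 0.154).

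Among enzymes that act on nucleotides and RNA, Rsad2 (viperin, which makes a chain-terminating nucleotide) and its genomic neighbour Cmpk2 (a mitochondrial nucleotide kinase) rose against GF. These and Eif2ak2 (PKR, the kinase that halts translation on double-stranded RNA) were higher than in GF+SCFA livers. Rsad2 was measured at 4.89, 4.36 and 4.83 CPM in the GF livers, 5.104, 6.85 and 6.43 CPM in the GF+SCFA livers and 7.28, 9.28 and 9.78 CPM in the ConvD livers. The groups stood in the order GF, GF+SCFA and ConvD with no overlap. ConvD exceeded GF by 1.87-fold (log2 fold change 0.90, SE 0.15, adjusted p = 0.00211) and GF+SCFA by 1.43-fold (log2 fold change 0.51, SE 0.15, adjusted p = 0.0257), the latter lost without any 1 of GF+SCFA replicates 1 and 3 or ConvD replicates 2 and 3 (adjusted p = 0.0595 to 0.104). GF+SCFA against GF did not pass (log2 fold change 0.39 ± 0.15 SE, adjusted p = 0.345). Cmpk2 had 3.26, 2.42 and 2.58 CPM in the GF livers, 2.78, 3.28 and 3.16 CPM in the GF+SCFA livers and 4.46, 5.62 and 5.63 CPM in the ConvD livers. Its ConvD livers were above all others, by 1.904-fold (log2 fold change 0.93, SE 0.17, adjusted p = 0.00343) against GF and 1.699-fold (log2 fold change 0.76, SE 0.17, adjusted p = 0.00658) against GF+SCFA. Eif2ak2 was at 26.6, 27.7 and 25.9 CPM in the GF livers, 24.9, 22.5 and 24.4 CPM in the GF+SCFA livers and 27.6, 29.2 and 29.6 CPM in the ConvD livers, a narrow range in which ConvD overlapped GF. It passed against GF+SCFA only (1.204-fold, log2 fold change 0.27, SE 0.08, adjusted p = 0.0255), and not without any 1 of GF+SCFA replicates 2 and 3 or ConvD replicates 2 and 3 (adjusted p = 0.0588 to 0.103). Isg20, an exonuclease, and Adar, which edits double-stranded RNA, did not pass against GF (1.66-fold, adjusted p = 0.0757, and 1.247-fold, adjusted p = 0.0707).

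Isg15 encodes a ubiquitin-like modifier, Herc6 a ligase that attaches it in mice, and Usp18 the protease that removes it and also silences the interferon receptor. Isg15, Usp18 and Trim21, a cytosolic antibody receptor with ligase activity, rose against GF (3 of 5). All 5 members of this group were higher than in GF+SCFA livers. Isg15 was at 6.302, 6.38 and 6.34 CPM in the GF livers, 6.24, 5.86 and 5.78 CPM in the GF+SCFA livers and 9.17, 11.7 and 11.2 CPM in the ConvD livers. The GF livers agreed closely, and each ConvD liver lay well above them. The difference from GF was 1.69-fold (log2 fold change 0.75, SE 0.12, adjusted p = 0.00152) and from GF+SCFA 1.79-fold (log2 fold change 0.84, SE 0.12, adjusted p = 0.000437). Usp18 was at 6.36, 8.81 and 7.37 CPM in the GF livers, 7.54, 7.45 and 7.47 CPM in the GF+SCFA livers and 11.1, 12.2 and 12.7 CPM in the ConvD livers, with each ConvD liver above all others, and 1.59-fold (log2 fold change 0.67, SE 0.12, adjusted p = 0.00366) above GF. Trim21 had 5.81, 5.34 and 4.79 CPM in the GF livers, 5.22, 4.92 and 3.33 CPM in the GF+SCFA livers and 7.91, 9.62 and 8.98 CPM in the ConvD livers. Its ConvD livers were again above all others, by 1.66-fold (log2 fold change 0.73, SE 0.16, adjusted p = 0.00907) against GF and 1.97-fold (log2 fold change 0.98, SE 0.16, adjusted p = 0.00122) against GF+SCFA. Usp18 exceeded GF+SCFA by 1.598-fold (adjusted p = 0.00217).

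Herc6 and Trim25, the ligase that activates RIG-I, passed only against GF+SCFA. Herc6 was at 14.1, 15.6 and 16.1 CPM in the GF livers, 13.5, 12.9 and 14.8 CPM in the GF+SCFA livers and 15.2, 20.02 and 18.1 CPM in the ConvD livers. ConvD replicate 1 lay within the GF range, and the difference from GF+SCFA was 1.29-fold (log2 fold change 0.37, SE 0.11, adjusted p = 0.0296), lost without any 1 of GF+SCFA replicates 1 and 2 or ConvD replicates 2 and 3 (adjusted p = 0.0618 to 0.123). Trim25 was at 86.8, 89.9 and 79.5 CPM in the GF livers, 76.1, 73.8 and 71.2 CPM in the GF+SCFA livers and 86.7, 81.3 and 87.2 CPM in the ConvD livers. ConvD and GF overlapped and GF+SCFA lay below both. Its difference from GF+SCFA was 1.154-fold (log2 fold change 0.21, SE 0.07, adjusted p = 0.0474), lost without any 1 of GF replicate 1, GF+SCFA replicates 1, 2 and 3 or ConvD replicates 1, 2 and 3 (adjusted p = 0.0585 to 0.158) and also with relative log expression factors (0.0509), with DESeq2 (0.0681) or without the filter on low counts (0.072). Against GF, Trim25 gave log2 fold change -0.01 ± 0.07 SE, adjusted p = 0.968, a value above 0 with upper-quartile scaling (0.0547) and with library totals (0.075).

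**Figure D2:**
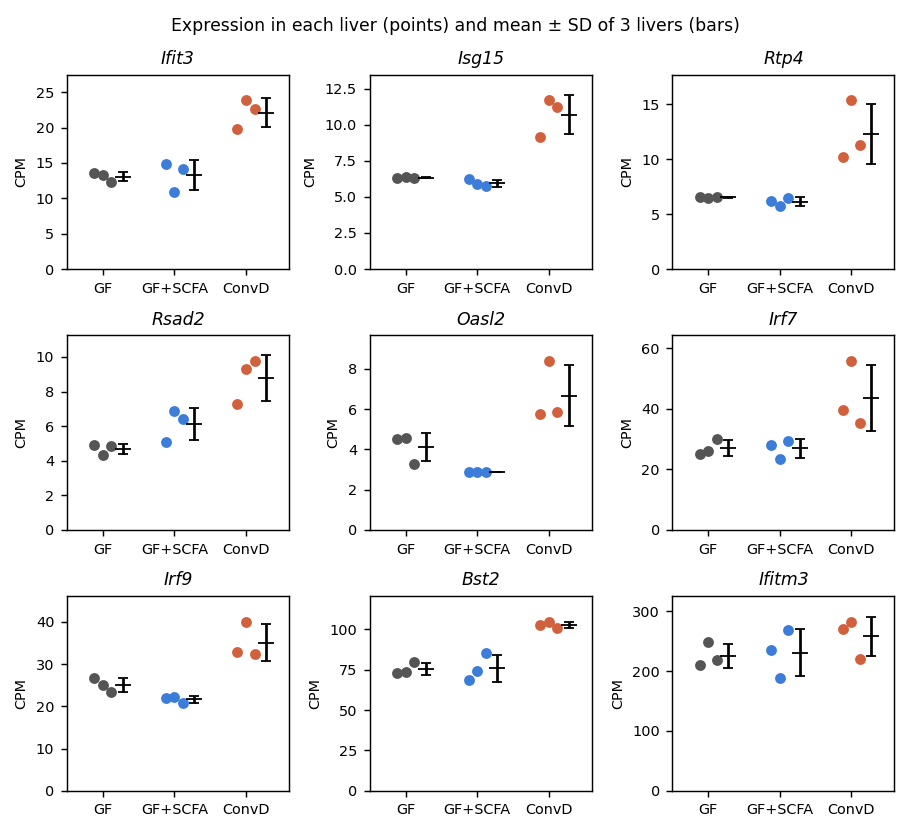
Points are single livers and bars the mean ± SD of 3 livers, in CPM, for 9 interferon-stimulated genes. ConvD livers lie above all germ-free livers in Ifit3, Isg15, Rtp4, Rsad2, Oasl2, Irf7, Irf9 and Bst2, and the groups overlap in Ifitm3.

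Parp9, Parp12 and Parp14 transfer ADP-ribose to proteins, and Dtx3l is a ubiquitin ligase that works with Parp9. Parp12 rose against GF (1 of 4), and Parp12 and Parp14 were higher than in GF+SCFA livers (2 of 4). Parp14 was at 47.2, 41.96 and 32.2 CPM in the GF livers, 29.4, 29.4 and 27.3 CPM in the GF+SCFA livers and 43.8, 49.3 and 48.7 CPM in the ConvD livers. GF replicate 3 lay between the other GF livers and the GF+SCFA livers, which were the lowest. ConvD exceeded GF+SCFA by 1.65-fold (log2 fold change 0.72, SE 0.12, adjusted p = 0.00127) and did not pass against GF (log2 fold change 0.23 ± 0.11 SE, adjusted p = 0.21). Parp12 had 32.2, 34.5 and 32.3 CPM in the GF livers, 30.8, 31.8 and 31.2 CPM in the GF+SCFA livers and 36.6, 43.2 and 42.04 CPM in the ConvD livers. The groups did not overlap, and ConvD exceeded GF by 1.23-fold (log2 fold change 0.30, SE 0.08, adjusted p = 0.023) and GF+SCFA by 1.298-fold (log2 fold change 0.38, SE 0.08, adjusted p = 0.00497). The call of Parp12 against GF was lost without any 1 of GF replicates 1 and 3 or ConvD replicates 2 and 3 (adjusted p = 0.0519 to 0.0896) and also with only both groups fitted (0.0509). Parp9, with the highest TPM of the 4, was at 48.1, 52.4 and 47.7 CPM in the GF livers, 55.97, 48.2 and 45.3 CPM in the GF+SCFA livers and 51.8, 59.3 and 62.7 CPM in the ConvD livers, with overlap between ConvD and each germ-free group (log2 fold change 0.23 ± 0.09 SE, adjusted p = 0.112). Dtx3l, log2 fold change -0.07 ± 0.11 SE, adjusted p = 0.71 against GF, was above 0 there with library totals (0.0131).

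The membrane proteins were the most abundant members by TPM, the scale that also corrects for transcript length. Ifitm3, which blocks fusion of viruses in endosomes, averaged 644 TPM over the 9 livers and Bst2 (tetherin, which holds budding virus at the cell surface) 190 TPM. Bst2 was at 72.7, 73.7 and 79.6 CPM in the GF livers, 68.3, 74.3 and 85.1 CPM in the GF+SCFA livers and 102, 105 and 101 CPM in the ConvD livers. The ConvD livers lay close together above all germ-free livers, by 1.36-fold (log2 fold change 0.45, SE 0.08, adjusted p = 0.003) against GF and 1.35-fold (log2 fold change 0.44, SE 0.08, adjusted p = 0.00211) against GF+SCFA. Ifitm3 had 211, 249 and 218 CPM in the GF livers, 236, 189 and 268 CPM in the GF+SCFA livers and 271, 283 and 221 CPM in the ConvD livers. ConvD replicate 3 lay among the germ-free livers, and no comparison of Ifitm3 passed (log2 fold change 0.19 ± 0.13 SE, adjusted p = 0.361 for ConvD against GF).

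Of the 7 remaining members, Rtp4 (a chaperone for receptors that restrains replication of flaviviruses), Xaf1 (a binder of XIAP), Lgals3bp (a secreted binder of galectin) and Samd9l (a restriction factor of poxviruses) rose against GF. With these, Ifi44 was higher than in GF+SCFA livers. Rtp4 was at 6.52, 6.48 and 6.57 CPM in the GF livers, 6.18, 5.71 and 6.49 CPM in the GF+SCFA livers and 10.2, 15.4 and 11.3 CPM in the ConvD livers. The germ-free livers were nearly alike, and ConvD replicate 2 was the highest. ConvD was above GF by 1.89-fold (log2 fold change 0.91, SE 0.14, adjusted p = 0.00152) and above GF+SCFA by 2.01-fold (log2 fold change 1.01, SE 0.14, adjusted p = 0.000492). Xaf1 was at 3.803, 4.899 and 3.62 CPM in the GF livers, 4.76, 3.58 and 3.65 CPM in the GF+SCFA livers and 7.08, 9.67 and 6.43 CPM in the ConvD livers, with each ConvD liver above all others, and 1.88-fold (log2 fold change 0.91, SE 0.18, adjusted p = 0.00632) above GF. Samd9l had 13.3, 13.01 and 14.6 CPM in the GF livers, 13.8, 13.1 and 14.2 CPM in the GF+SCFA livers and 23.2, 22.6 and 18.3 CPM in the ConvD livers. Its ConvD livers lay above all others, by 1.57-fold (log2 fold change 0.65, SE 0.10, adjusted p = 0.00152) against GF, with 1.56-fold (adjusted p = 0.000991) against GF+SCFA and 1.94-fold (0.00323) for Xaf1.

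Lgals3bp, one of the more abundant members, was at 41.3, 58.2 and 44.7 CPM in the GF livers, 48.5, 47.97 and 44.8 CPM in the GF+SCFA livers and 69.3, 72.99 and 55.5 CPM in the ConvD livers. ConvD replicate 3 lay below GF replicate 2, and the difference from GF was 1.37-fold (log2 fold change 0.46, SE 0.13, adjusted p = 0.0422). It was lost without any 1 of GF replicates 1 and 3, GF+SCFA replicates 1, 2 and 3 or ConvD replicates 1 and 2 (adjusted p = 0.0603 to 0.139) and also without the filter on low counts (0.0577) or with only both groups fitted (0.0903), and the difference from GF+SCFA (1.401-fold, log2 fold change 0.49, SE 0.13, adjusted p = 0.0253) without any 1 of GF+SCFA replicates 1, 2 and 3 or ConvD replicates 1 and 2 (adjusted p = 0.063 to 0.0925). Ifi44 was at 2.61, 3.46 and 3.19 CPM in the GF livers, 2.27, 2.19 and 3.11 CPM in the GF+SCFA livers and 3.93, 5.91 and 4.25 CPM in the ConvD livers. All ConvD livers were above all germ-free ones, yet against GF it did not pass (log2 fold change 0.60 ± 0.20 SE, adjusted p = 0.06), while against GF+SCFA it was 1.87-fold (log2 fold change 0.90, SE 0.21, adjusted p = 0.0085). Sp100, a protein of nuclear bodies, and Ifi35 did not pass against either group, at 1.31-fold (adjusted p = 0.0664) and 1.17-fold (0.135) against GF.

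**Figure D3:**
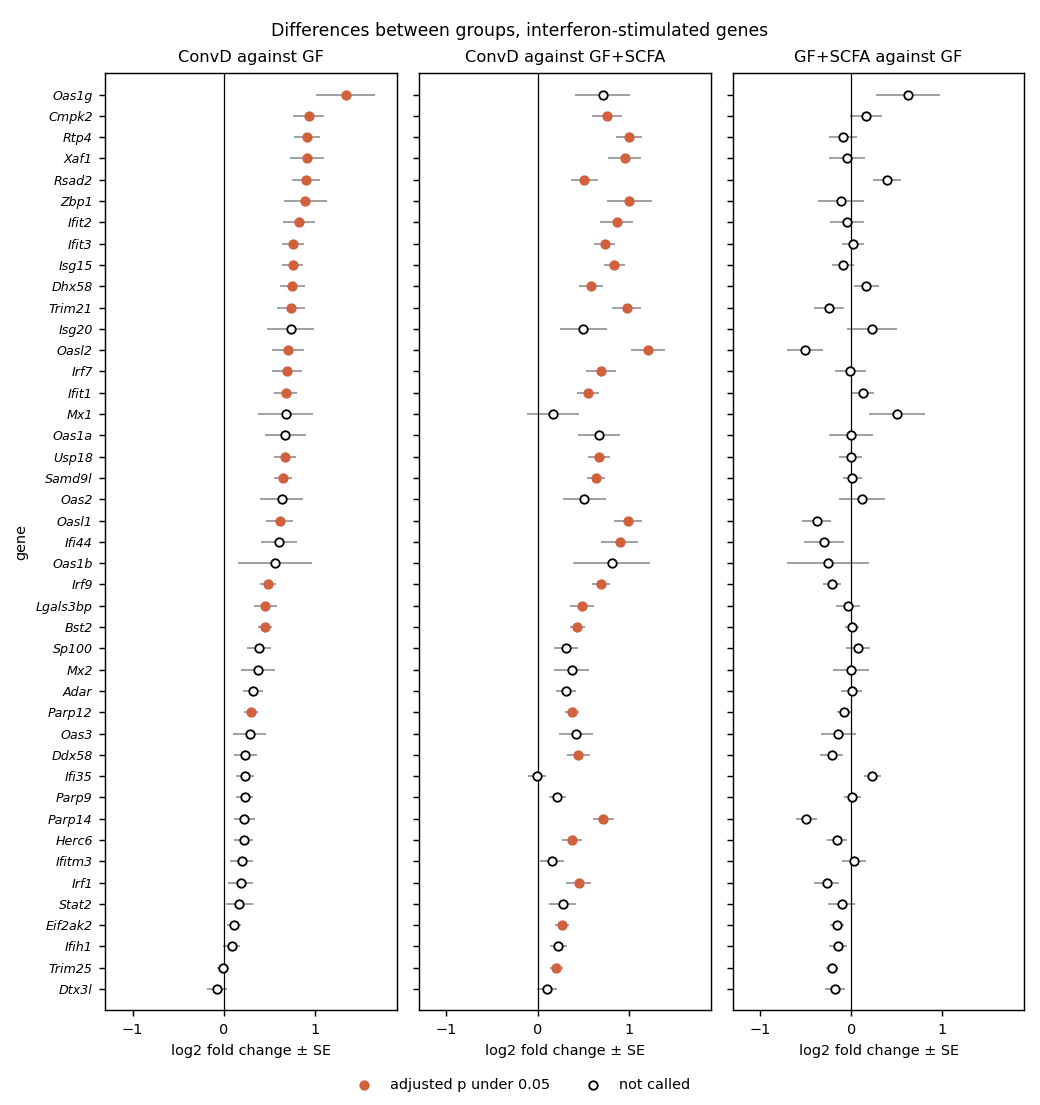
Points give the log2 fold change of each interferon-stimulated gene and lines ± 1 SE, in the 3 comparisons, with filled points for an adjusted p under 0.05. In ConvD against GF 21 points are filled, in ConvD against GF+SCFA 27, all above 0, and in GF+SCFA against GF none.

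Short-chain fatty acids in the water were not accompanied by a called change in any member. In GF+SCFA against GF livers 0 of 43 members passed with edgeR, where 0.0415% of all genes were called (0.00831% higher and 0.0332% lower). At an unadjusted p under 0.05, 2 members were higher and 5 lower, a share to set beside the 12.3% of all genes in either direction. DESeq2 called 1 member, Parp14 (log2 fold change -0.49, adjusted p = 0.0339). The median log2 fold change was -0.04 over members and -0.0062 over all genes. Values were above 0 in 17 members and below 0 in 26, and the smallest adjusted p was 0.153, in Parp14. The germ-free groups did not overlap in 3 members that were higher with the fatty acids and 7 that were lower, where 9.06% and 8.86% of all genes were higher and lower without overlap.

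The largest differences between the germ-free groups were in Oas1g (0.62 on the log2 scale, adjusted p = 0.503), Oasl2 (-0.51, 0.328), Mx1 (0.50, 0.546) and Parp14 (-0.49, 0.153). Parp14 passed without GF replicate 3 (log2 fold change -0.63, adjusted p = 0.00336), the GF liver with its lowest value. The 21 members called between ConvD and GF livers were picked for a large ConvD difference, measured from the same GF livers as the GF+SCFA difference. That choice largely fixed the following count, which also leaves out the error of the ConvD difference. In 20 of the 21, the ConvD difference lay above the 95% interval of the GF+SCFA difference from GF. The exception was Oas1g, at 1.33 in ConvD and with an interval of -0.24 to 1.48. Among the others, the 95% interval of the GF+SCFA difference from GF was -0.27 to 0.31 in Ifit3, -0.39 to 0.21 in Isg15, -0.46 to 0.28 in Rtp4 and -0.41 to 0.40 in Irf7, on the log2 scale. Their ConvD differences from GF were 0.76, 0.75, 0.91 and 0.69. In Rsad2 the interval was 0.01 to 0.77 and in Oasl2 -0.98 to -0.03. These intervals do not show that the germ-free groups were alike.

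**Figure D4:**
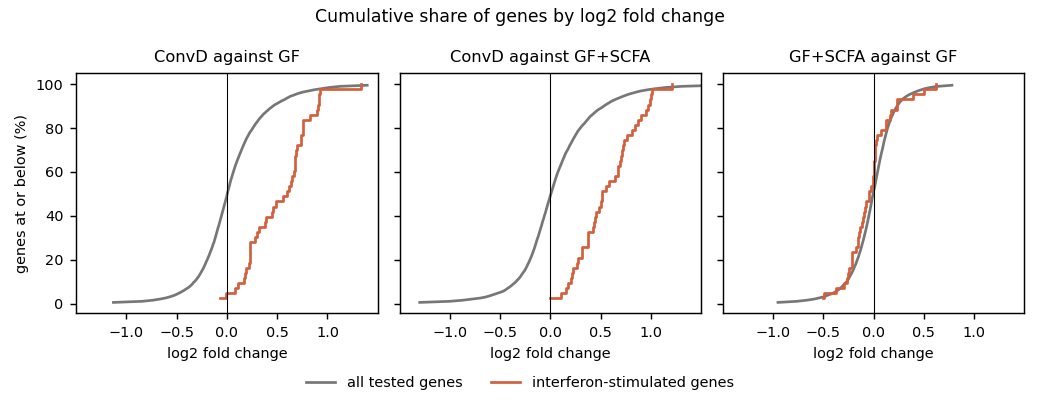
Curves give the cumulative share of genes (%) at or below each log2 fold change, for the 43 interferon-stimulated genes and for all 12037 tested genes. The curve of the members lies to the right in both comparisons with ConvD livers, with medians of 0.60 and 0.51, and along that of all genes in GF+SCFA against GF (median -0.04).

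The members also differed in level and in spread. Mean TPM over the 9 livers was under 1 in 5 members, 1 to 10 in 23, 10 to 100 in 13 and above 100 in Ifitm3 and Bst2, with a median of 6.67 TPM and the lowest value in Mx1 (0.59 TPM). The median coefficient of variation of CPM over 3 livers was 10.2% in GF, 8.81% in GF+SCFA and 12.7% in ConvD livers. ConvD replicate 2 was the highest of all 9 livers in 28 of 43 members, ConvD replicate 3 in 10 and ConvD replicate 1 in 1. Within the ConvD group, replicate 1 was the lowest liver in 26 members. The mean over members of the log2 difference from the GF mean was 0.35, 0.62 and 0.42 in the 3 ConvD livers, -0.05 to 0.03 in the GF livers and -0.09 to -0.01 in the GF+SCFA livers.

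Genes of the pathway upstream of the members were taken from a list of 36 reported here, of which 26 passed the filter on low counts. The ligands were at or near 0. No read was assigned in any liver to Ifnb1 or to 11 other type I interferon rows, among them Ifna genes. The same held for Il28a and Il28b (interferon lambda). A count of 0 allows at most 3 counts per library, 0.141 to 0.17 CPM. Ifng had 8 counts over all 9 livers. Polyadenylated RNA of whole liver showed no type I or lambda interferon transcript at this depth, and interferon made elsewhere in the body is outside what was measured.

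The receptor genes showed no call between ConvD and GF livers (0 of 5 tested, where 12.8% of all genes were called in either direction). Their median log2 fold change was 0.15, against 0.0026 over all genes and 4 of 5 values were above 0. Ifnar1 had 47.05, 40.97 and 42.2 CPM in the GF livers, 40.1, 44.2 and 47.9 CPM in the GF+SCFA livers and 44.7, 41.9 and 41.7 CPM in the ConvD livers (log2 fold change -0.02 ± 0.08 SE, adjusted p = 0.902), and Ifnar2 averaged 51.1 CPM in the ConvD and 48.5 CPM in the GF group (adjusted p = 0.542). Jak1 and Tyk2, the receptor kinases, gave log2 fold changes of -0.11 and 0.14 (adjusted p = 0.323 and 0.226).

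Of 13 tested genes that sense pathogens and induce interferon, among them Tlr3, Tlr7, Myd88, Mavs, Tbk1 and Irf3, 0 were called between ConvD and GF livers (12.8% of all genes in either direction). At an unadjusted p under 0.05, 3 of the 13 were higher and 1 lower (28.6% of all genes in either direction). Without overlap, 3 were higher and 1 lower, where 15.7% of all genes were higher and 15.9% lower. Their median log2 fold change was 0.15, with 9 of 13 values above 0. Of 4 tested brakes of the pathway, 2 phosphatase genes passed, where 12.8% of all genes were called in either direction. Ptpn6 was higher (log2 fold change 0.28 ± 0.09 SE, adjusted p = 0.0485), while Ptpn11 was lower (log2 fold change -0.27 ± 0.07 SE, adjusted p = 0.0208). The call of Ptpn6 was lost without any 1 of GF replicates 1, 2 and 3, GF+SCFA replicates 1, 2 and 3 or ConvD replicates 2 and 3 (adjusted p = 0.0501 to 0.149) and also with DESeq2 (0.0825), without the filter on low counts (0.0645) or with only both groups fitted (0.0865), and that of Ptpn11 without any 1 of GF replicate 2 or ConvD replicates 1 and 2 (adjusted p = 0.0549 to 0.0852) and also with upper-quartile factors (0.0555) or with library totals (0.0919). Against GF+SCFA livers 4 of the 26 tested pathway genes were higher in ConvD (15.4%) and 1 was lower. Of all genes, 9.44% were called higher and 8.97% lower in that comparison. The higher ones were Ifngr2 (0.46 on the log2 scale, adjusted p = 0.00707), Tyk2 (0.39, 0.00344), Tlr3 (0.85, 0.00367) and Tbk1 (0.27, 0.0358), and the lower one was Ptpn11 (-0.22, 0.038). Tbk1 lost its call without any 1 of GF+SCFA replicates 1, 2 and 3 or ConvD replicates 2 and 3 (adjusted p = 0.0696 to 0.123) and also with DESeq2 (0.0669) or without the filter on low counts (0.0551), and Ptpn11 without any 1 of GF+SCFA replicates 1, 2 and 3 or ConvD replicates 1 and 2 (adjusted p = 0.059 to 0.136) and also with upper-quartile factors (0.101) or with library totals (0.165). In GF+SCFA against GF, 0 of the 26 passed, where 0.0415% of all genes were called.

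**Figure D5:**
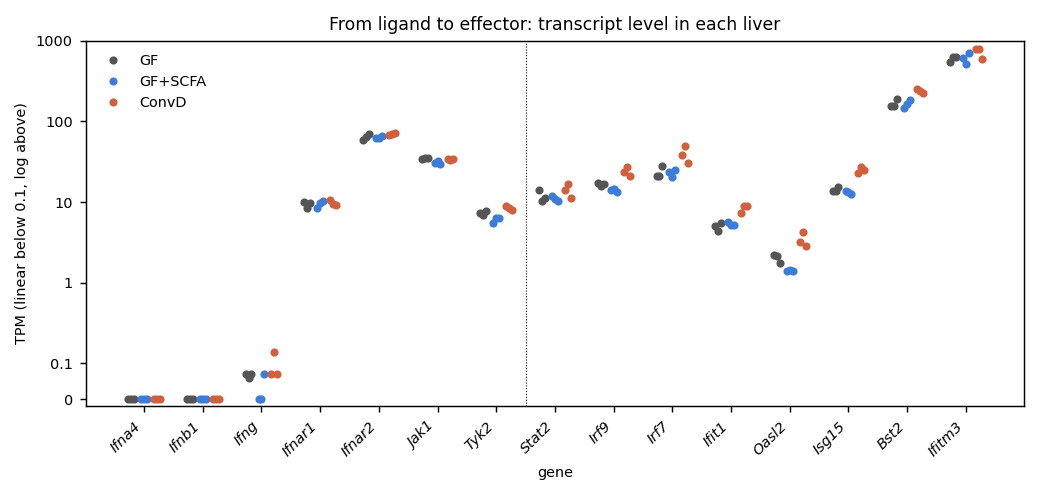
Points give TPM in each liver, on an axis that is linear below 0.1 and logarithmic above, for genes from ligand to effector; genes right of the dotted line are members. Ifna4 and Ifnb1 lie at 0, Ifnar1 and Ifnar2 overlap between GF and ConvD, and Irf9, Ifit1, Oasl2, Isg15 and Bst2 are highest in ConvD livers.

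Markers of other cell types moved in ConvD against GF livers, where 5.93% of all genes were called higher and 6.9% lower. Of 14 macrophage and Kupffer cell genes 9 rose in ConvD against GF livers, and their summed level was 409.6 to 494 CPM in GF, 439 to 542 CPM in GF+SCFA and 565 to 820.4 CPM in ConvD livers. ConvD replicate 1 had the lowest of the ConvD sums and replicate 2 the highest. Of 7 tested monocyte and neutrophil genes 5 rose. The sums over all 10 listed genes were 2.93 to 5.96 CPM in GF, 4.07 to 4.42 CPM in GF+SCFA and 15.5 to 23.5 CPM in ConvD livers. Of 4 tested B and plasma cell genes 1 rose (sums over all 6 listed genes 2.28 to 3.31 CPM in GF, 1.64 to 2.27 CPM in GF+SCFA and 5.79 to 7.18 CPM in ConvD). Against GF+SCFA livers, where 9.44% of all genes were called higher, 3 of 14 macrophage, 6 of 7 monocyte and neutrophil and 3 of 4 B and plasma cell genes were higher. The neutrophil granule genes Elane and Mpo had at most 5 and 8 counts in any liver. Of 3 red cell genes (Hba-a1, Hbb-b1 and Alas2) 0 passed in ConvD against GF (adjusted p = 0.126 to 0.337), and 2 were higher at an unadjusted p under 0.05, with a median log2 fold change of 1.48. Their summed level was 229 to 322 CPM in GF, 208 to 302 CPM in GF+SCFA and 275, 870.2 and 606 CPM in ConvD replicates 1, 2 and 3. The order of the ConvD livers differed between lists. In replicates 1, 2 and 3, monocyte and neutrophil sums were 17.13, 23.48 and 15.47 CPM. B and plasma cell sums were 7.182, 6.787 and 5.793 CPM. The interferon-stimulated genes summed to 1189, 1311 and 1151 CPM in the same livers. Of 7 sinusoidal endothelial genes 1 was lower in ConvD against GF (Lyve1, log2 fold change -0.85, adjusted p = 0.0359) and 0 higher, with sums of 236 to 246 CPM in GF, 221 to 246 CPM in GF+SCFA and 224 to 267 CPM in ConvD livers. No stellate (0 of 6) or cholangiocyte (0 of 5) gene passed in that comparison, while 3 of 6 and 1 of 5 were higher in ConvD than in GF+SCFA livers. The part of these cells in the rise of the interferon-stimulated genes was not tested. In whole-liver RNA, more cells of a type and more RNA per cell cannot be told apart.

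Plasmacytoid dendritic cells are major producers of type I interferon. Of their markers (without Bst2, a member) 0 of 2 tested genes passed in any comparison. Without overlap, 1 of the 2 was lower in GF+SCFA against GF livers (8.86% of all genes). In ConvD against GF+SCFA livers, 1 of the 2 was higher without overlap (19% of all genes). The summed level of all 4 listed genes, tested or not, was 11.6 to 12.2 CPM in GF, 9.53 to 11.7 CPM in GF+SCFA and 11.6 to 13.5 CPM in ConvD livers. No gene of T and NK cells (0 of 6) or conventional dendritic cells (0 of 4) passed in ConvD against GF (12.8% of all genes in either direction). Hepatocyte markers identified the tissue, with Alb at 65900 TPM in GF livers. Of 10 hepatocyte genes 1 was higher (Ttr) and 2 lower (Tat and Cps1), and their sum was 124000 to 141800 CPM in GF and 114700 to 142500 CPM in ConvD livers. Library totals were 18193071 to 21627696 expected counts, and TMM factors 0.935 to 1.06.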

How the data were processed

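RNA of the 9 liver samples was extracted on Qiagen columns and libraries followed the TruSeq Stranded mRNA protocol (Illumina), per the labels' protocols. The submitters' processing notes name Bowtie2, RSEM 1.2.23 and the build mm9. Neither the Bowtie2 version nor RSEM's strand setting is given in the sources used here; overlapping antisense genes may therefore share reads. The deposited expected counts are not normalised, and 35.4% of those above 0 were not whole (tolerance 0.05), since RSEM divides reads between similar genes. For the members the share was 49.9%. Deposited TPM, scaled by the authors for length and depth per the file headers, served to compare genes.

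Expected counts were rounded and tested with edgeR 4.0.16 in R 4.3.3 (limma 3.58.1). The filter filterByExpr with a minimum count of 10 kept 12037 genes, and libraries were scaled by TMM. One no-intercept model of the 3 groups over 9 livers (6 residual degrees of freedom, robust quasi-likelihood) gave each comparison, with Benjamini-Hochberg adjustment over all genes and a threshold of 0.05. An SE was obtained as log2 fold change over the root of F, and 95% intervals use the t distribution with those degrees of freedom. The biological coefficient of variation was 10.6%. Counts of libraries within a group differed by a chi-square of 11.4 to 54.4 per degree of freedom, so no library was a copy of another. The procedure was also run on simulated counts with known changes, but the share of small changes that it recovers is not given here. Alternatives were other scale factors, DESeq2 1.42.0, no filter, fits of the compared groups alone, a replicate block and leaving out each liver. The limit of 3 counts at a count of 0 covers counting error only.

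The members and the lists of pathway and marker genes were chosen with earlier results of these data known, so no test was made over a list. One gene of the pathway list is not reported here. Called members, and the member of each role with the highest mean TPM, are given in every liver. Older gene symbols were matched through RefSeq (GRCm38.p6), from which promoter windows also came.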

Additional observations from a re-analysis of the deposited data

How the results depend on the processing

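Members called higher in ConvD against GF numbered 21 with relative log expression factors and with DESeq2, 26 with upper-quartile factors and with library totals, 20 without the filter on low counts and 18 with only both groups fitted, and 15 to 20 when 1 liver was left out. The median of members was 0.45 to 0.62 in the latter fits. In ConvD against GF+SCFA the count was 25 to 31 under the other settings and 20 to 28 without 1 liver, all higher. Of the called members, 14 of 21 and 18 of 27 passed in every fit without 1 liver. The like share of all called genes was not computed, so members cannot be compared with other genes in this. Of all 12037 genes, 714 were called higher in ConvD against GF in the main fit, 1058 with upper-quartile factors and 1061 with library totals. In GF+SCFA against GF the member count was 0 except 1 (Parp14) with DESeq2 and without GF replicate 3. Over all genes, leaving out 1 liver gave 849 (without ConvD replicate 2) to 1466 calls in ConvD against GF, also 918 without GF replicate 1 and 936 without ConvD replicate 1. It gave 0 to 173 calls in GF+SCFA against GF (173 without GF replicate 3) and 1383 (without GF+SCFA replicate 2) to 2393 in ConvD against GF+SCFA. GF+SCFA against GF, with 5 calls, had 82 with DESeq2, 24 without the filter and 9 with library totals. Whether replicate numbers pair the livers was not settled (same-number correlations -0.07 to 0.14, 1 of 9 above 0.1, own number highest in 11 of 18 cases). Between GF and GF+SCFA livers, same-number correlations were 0.0859, 0.0768 and 0.1387, against -0.1037 to 0.0242 for unlike numbers. Between ConvD and germ-free livers, same-number correlations were -0.0662 to 0.0511 and unlike ones -0.128 to 0.1113. With the replicate block the calls were 1514, 5 and 2195 over all genes and 20, 0 and 25 members in ConvD against GF, GF+SCFA against GF and ConvD against GF+SCFA. The block left without a call Irf7 (adjusted p = 0.0617) and Ptpn6 (0.0501) in ConvD against GF and Irf1 (0.0517), Trim25 (0.0592) and Ptpn11 (0.0517) in ConvD against GF+SCFA. Signs near 0 turned. In ConvD against GF, Trim25 was 0.0547 with upper-quartile factors and 0.075 with library totals (without 1 liver -0.0528 to 0.0314), and Dtx3l 0.0131 with library totals (-0.21 to 0.0056). Ifi35 in ConvD against GF+SCFA was 0.0509 with upper-quartile factors and 0.0689 with library totals (-0.0862 to 0.0617). In GF+SCFA against GF, Mx2 was -0.0013 with relative log expression factors and DESeq2 and -0.0029 with the block, Usp18 0.003 with library totals, and Oas1a 0.005 with upper-quartile factors, 0.0057 with library totals, 0.0032 without the filter, 0.0038 with only both groups and 0.0027 with the block. Without 1 liver, log2 fold changes in GF+SCFA against GF spanned Adar -0.0528 to 0.12, Bst2 -0.0789 to 0.0801, Ifit2 -0.25 to 0.10, Ifit3 -0.0673 to 0.15, Ifitm3 -0.0884 to 0.16, Irf7 -0.0743 to 0.084, Lgals3bp -0.13 to 0.13, Mx2 -0.0968 to 0.0842, Oas1a -0.15 to 0.21, Oas1b -0.66 to 0.10, Oas2 -0.0109 to 0.34, Oas3 -0.26 to 0.0403, Parp9 -0.0805 to 0.0746, Samd9l -0.0231 to 0.0633, Sp100 -0.0269 to 0.20, Stat2 -0.19 to 0.051, Usp18 -0.11 to 0.12 and Xaf1 -0.18 to 0.10. The cause was not tested. Low levels limit the precision of Mx1, Oas1b, Oas1g, Oas2 and Oas3, all under 1 TPM.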
